A study of Mus musculus with 2 samples.

Results

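Smooth muscle contractile and regulatory genes were examined in the ureters of mouse embryos at E14.5. The set has 33 genes, and a gene entered by its name on the array, with every non-control probe of that name. They carry 57 probes, 1 each for 19 genes and several for the other 14. The detection rule, given with the detection results, was met by 45 of the 57 probes (78.9%), which cover 29 of the 33 genes. Over the whole array it was met by 26522 of 39429 probes (67.3%), which cover 20104 genes.

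Ureters were dissected mechanically from NMRI embryos, and total RNA was hybridised to 2 two-colour Agilent arrays, each holding a knockout and a control sample. The knockout is labelled Smad4cKO (UE), with the genotype given as Pax2-cre/+;Smad4(fl/fl) in the title of the study and as Pax-cre/+;Smad4(fl/fl) for the samples. Controls are labelled Smad4(fl/?), so they carry at least 1 floxed allele, and whether any of them carried the Cre is not stated in the labels. Pax2-cre is known to recombine floxed alleles in the nephric duct and the ureteric epithelium that comes from it, whereas ureteric smooth muscle arises from the mesenchyme around that epithelium. The RNA is that of the whole ureter. Replicate 1 is labelled female, with the control in Cy5 and the knockout in Cy3. Replicate 2 is labelled male, with the control in Cy3 and the knockout in Cy5. Sex and dye orientation therefore change together between the arrays and cannot be told apart. The labels do not say how many embryos went into a sample, so the errors below measure the spread between these arrays only. In a whole-ureter sample, fewer muscle cells and less RNA per muscle cell cannot be told apart.

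The muscle layer of the ureter carries out peristalsis, which moves urine from the renal pelvis to the bladder. It forms from mesenchyme around the epithelial tube in response to signals from that epithelium. Its differentiation is driven by SRF, which binds the CArG box, a short motif in the control regions of many contractile genes, and by myocardin (Myocd), the co-activator that SRF recruits. Contraction follows when calcium entry activates myosin light chain kinase, which phosphorylates the light chains of the smooth muscle myosin and lets it pull on actin thin filaments.

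Sequences near the start sites were compared because SRF and myocardin are themselves members and act through the CArG box. RefSeq promoters (GRCm38.p6, from 250 bases before to 50 bases after the transcript start) were at hand for 27 of the 33 members. No promoter was listed for Actg2, Myh11, Myocd, Nexn, Tagln and Tgfb1i1, so these genes were not searched. A CArG box, a motif searched on both strands, was found in 4 of the 27 members (14.8%) and in 488 of all 27025 genes with a promoter (1.81%). Counted by promoter, 535 of all 32851 windows of that length held it (1.63%). These are the windows, read on the strand of the gene with 15 bases on each side and with the CArG boxes in capitals:
Srf (chr17:46556200-46556259, minus strand): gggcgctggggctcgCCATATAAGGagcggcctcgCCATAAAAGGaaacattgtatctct
Myl9 (chr2:156775288-156775327, plus strand): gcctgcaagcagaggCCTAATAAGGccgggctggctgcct
Vcl (chr14:20929156-20929195, plus strand): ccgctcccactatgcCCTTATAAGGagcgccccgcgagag
Ldb3 (chr14:34588692-34588731, minus strand): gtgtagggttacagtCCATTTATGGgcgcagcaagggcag
Srf held a pair of boxes, starting at -82 and -62 relative to its transcript start. The box of Ldb3 lay closest to a start, at -35, and those of Myl9 and Vcl began at -161 and -227. With 1 mismatch allowed in the central 6 letters, 10 of the 27 members (37.0%), 11.3% of all genes and 9.98% of all promoters matched. A match is a description of these letters only, and boxes outside the window were not searched.

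The array reads each gene through probes of 60 bases, which are placed on mm9 by the array design. The probes of Myh11, the smooth muscle myosin heavy chain, and Tpm2, a tropomyosin of the thin filament, are shown as examples for the motor and the filament. Their exon numbers were not determined, since no annotation of mm9 was used here:
Myh11 (chr16:14202190-14202249, minus strand): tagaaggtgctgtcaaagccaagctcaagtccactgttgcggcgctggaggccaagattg
Tpm2 (chr4:43531276-43531335, minus strand): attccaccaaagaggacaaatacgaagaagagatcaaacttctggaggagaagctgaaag
Each such probe was printed in 4 spots on each array, so that a level below is a mean over up to 4 spots.

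Most genes of the set were detected in the whole ureter at E14.5. Which cells gave the signal was not tested. The scanner software marks a spot as well above background or not. A probe counted as detected where 2 or more of its 4 spots carried that mark on each array, in the channels of the knockout, of the control, or of both. By this rule all of the defining genes Acta2, Actg2, Tagln, Myh11, Cnn1, Myocd and Des were detected, and the main (brightest kept) probe of each of the 29 genes was well above background on every spot used in all 4 channels. Some other probes of Synpo2, Synm, Ppp1r12b and Cacna1c did not meet the rule. In all, 6 probes had no spot well above background in any channel. Besides those of Lmod1 and Pln, they were probes of Synm, Synpo2 and Ppp1r12b. Only 4 genes had no kept probe. Lmod1, a nucleator of actin filaments, and Pln, the inhibitor of the calcium pump of the internal store, had 0 of 4 spots well above background in each channel. Jph2, which ties the internal store to the cell surface, had 1 spot in the knockout channel of replicate 1 and 1 in the control channel of replicate 2. Kcnmb1, the beta subunit of a calcium-activated potassium channel, had 4 spots in the knockout channel of replicate 1 and 2 in the control channel of replicate 2, with 0 in both of their partner channels. Its detection thus went with opposite genotypes on the 2 arrays and with Cy3 on both. Since these 4 genes did not meet the detection rule, their levels were left out of the main comparison. Of the 4, 3 belong to the 5 genes of calcium handling and excitability.

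**Figure D1:**
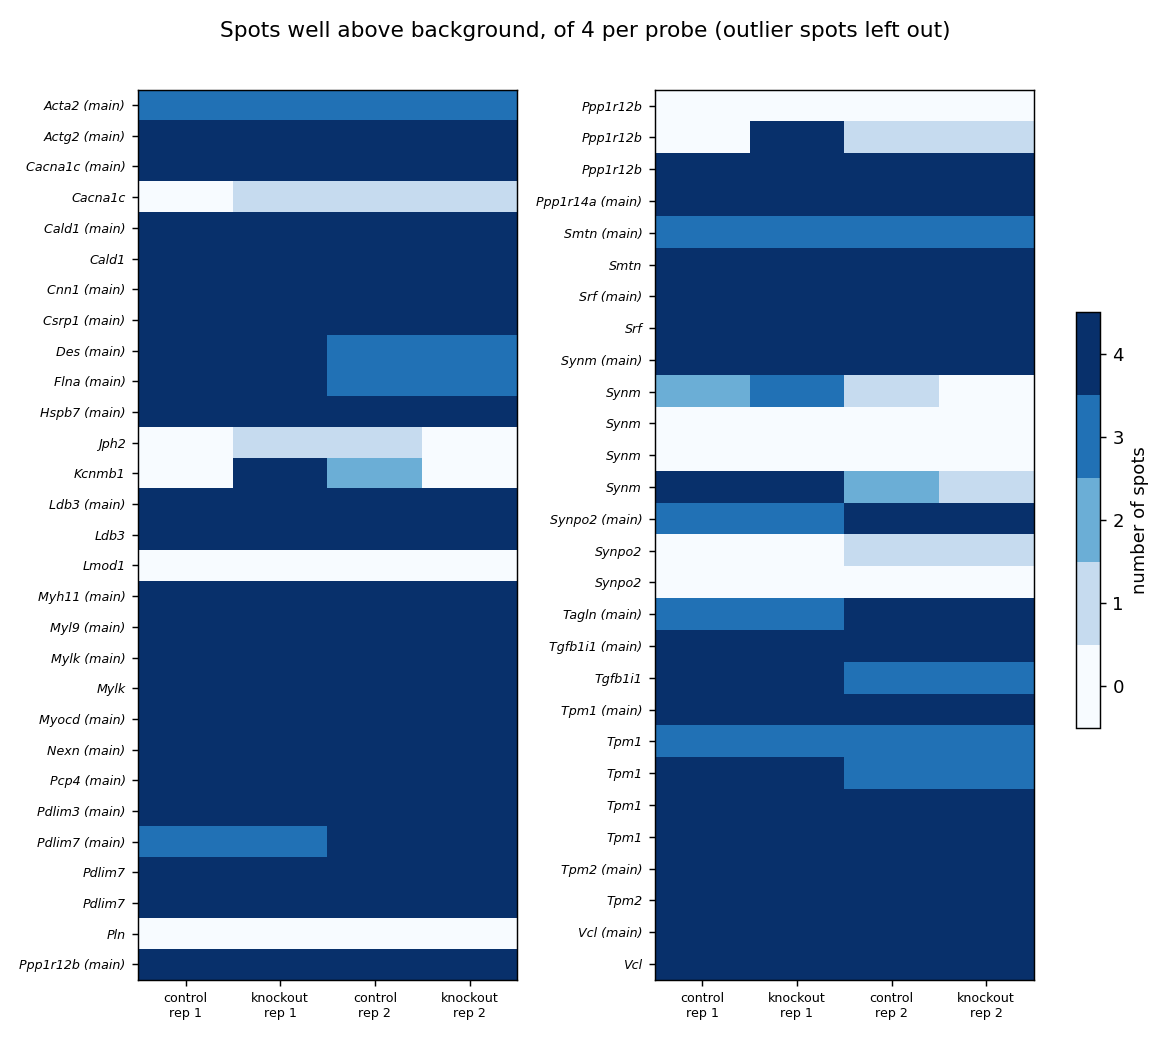
Number of spots well above background (colour, 0 to 4) for each of the 57 probes (rows) in each channel (columns), with outlier spots left out and the main probe of each gene marked. Lmod1 and Pln are blank throughout, and Jph2 and Kcnmb1 are partly filled. The main probe of each of the other 29 genes shows 3 or 4 spots in every channel. Some other probes of Synm, Synpo2 and Ppp1r12b are blank as well.

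Values below are log2 ratios of labelled knockout over labelled control, turned by the dyes in the labels, so that a value below 0 means brighter in the control. The authors' deposited table, read in the order of its titles, runs the opposite way on both arrays. Smad4 itself read -0.58 on replicate 1 and -0.08 on replicate 2, and since it is not known whether its probe lies in the floxed part it does not check the labels.

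None of the 29 genes passed limma (2 log2 ratios against 0, two-sided) after Benjamini-Hochberg adjustment over all genes, which 0.328% of the 20104 genes passed. The lowest adjusted p among the 29 was 0.610, for Myocd, and the other 28 stood at 1.00. At an unadjusted p under 0.05, 1 of the 29 passed (Myocd), beside 4.55% of all genes. Counted by size alone, 0 of the 29 were higher in the knockout by 1.5-fold or more on both arrays (0.264% of all genes) and 0 were higher in the control (0.104% of all genes). The mean difference was within 1.2-fold for 28 of the 29, and the 95% interval of limma lay within 1.5-fold in either direction for 27 and within 2-fold for all 29. Differences beyond 2-fold in the mean were therefore outside the interval of each measured gene, while differences inside those intervals could not be shown with 2 arrays. These intervals were computed for the main processing only. Over 11 other processing settings the mean of Hspb7 ran from -0.25 to -0.08 and that of Myh11 from 0.11 to 0.23. Both probes are dim, with log2 levels of 7.16 to 7.37 for Hspb7 and 7.32 to 7.72 for Myh11. The undetected Lmod1 stood at 6.24 to 6.32. A background offset of 0 in place of 50 took the mean of Myh11 from 0.12 to 0.17, so the ratio of a dim probe depends on the offset.

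The median log2 ratio of the 29 genes was -0.03, beside -0.0044 for all genes. On replicate 1 it was -0.14, with 21 genes below 0 and 8 above, and on replicate 2 it was 0.04, with 12 below and 17 above. Below 0 on both arrays were 9 of the 29 genes (24.6% of all genes), or 3 with median centring in place of loess, and above 0 on both were 5 (21.7% of all genes). The largest class, 12 genes, was brighter in Cy5 on both arrays (27.1% of all genes), which means dimmer in the knockout of the female array and brighter in the knockout of the male one. Only 3 genes, Des, Myl9 and Pdlim3, were brighter in Cy3 on both (26.5% of all genes).

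**Figure D2:**
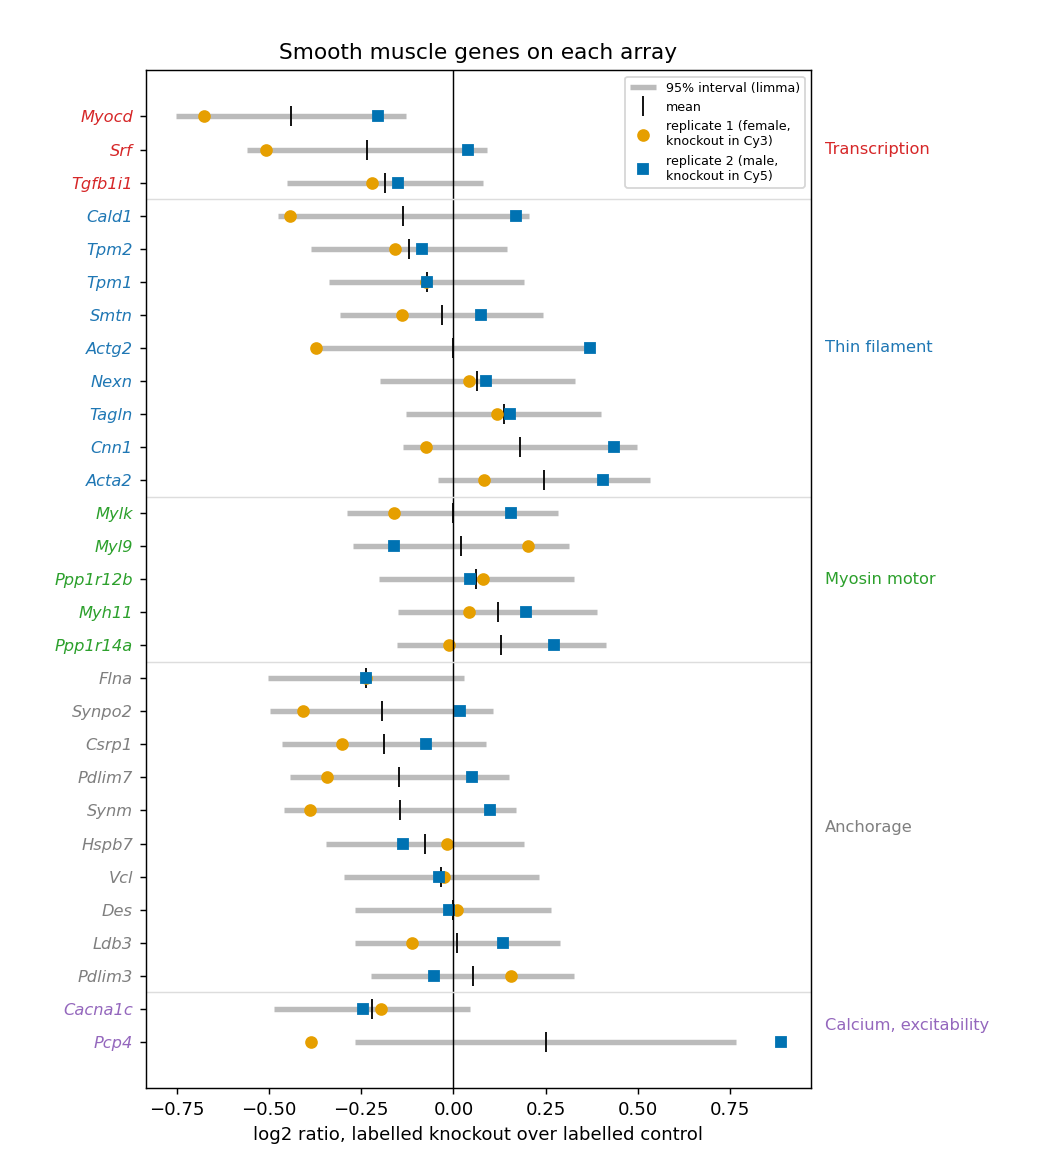
Log2 ratio of labelled knockout over labelled control (x axis) for the 29 detected genes (y axis, grouped by role), with replicate 1 as circles, replicate 2 as squares, the mean as a tick and the 95% interval of limma as a grey bar. The interval, not adjusted for the number of genes, holds 0 for 28 of the 29 genes, the exception being Myocd, and the points of Actg2, Pcp4, Cald1, Srf and Synm lie on opposite sides of 0.

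The transcription group holds the myocardin and SRF pair and a co-regulator. Its median of -0.23 was the lowest of the 5 groups, but with only 3 genes it is simply the value of Srf. Myocd had a log2 intensity of 10.80 in the knockout and 11.48 in the control of replicate 1, and of 10.19 in the knockout and 10.40 in the control of replicate 2. The control was brighter within each array, but the groups overlapped, because the knockout of replicate 1 was brighter than the control of replicate 2. Its log2 ratio was -0.68 and -0.20, a mean of -0.44 ± 0.33 (SD, n = 2 arrays), or 1.36-fold, the largest difference among the 29 genes (limma adjusted p = 0.610). Its only probe lies at chr11:64991930-64991989 of mm9, on the minus strand.

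Srf, which carries a pair of CArG boxes in the window printed above, read 11.94 in the knockout and 12.45 in the control of replicate 1, and 12.12 and 12.08 on replicate 2. The control was the brighter channel on replicate 1 only, and the genotypes overlapped. The mean log2 ratio was -0.23 ± 0.39 (SD, n = 2; limma adjusted p = 1.00). A second probe of Srf went the same way on each array, with -0.33 and 0.02.

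Tgfb1i1 (Hic-5) encodes a focal adhesion protein that also acts as a transcriptional co-regulator and responds to TGF-beta. It read 13.65 in the knockout and 13.88 in the control of replicate 1, and 13.50 and 13.65 on replicate 2. Its ratios of -0.22 and -0.15 stood close together, with a mean of -0.19 ± 0.05 (SD, n = 2; limma adjusted p = 1.00). Its dimmer second probe, however, read 0.15 and 0.21, so the direction of Tgfb1i1 depends on the probe.

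The thin filament group (9 of its 10 genes detected) had a median of -0.00, with 3 genes above 0 on both arrays and 2 below. Acta2, smooth muscle alpha-actin, read 12.30 in the knockout and 12.21 in the control of replicate 1, and 12.31 and 11.91 on replicate 2. Both knockout channels were brighter than both control channels. The mean log2 ratio was 0.24 ± 0.23 (SD, n = 2; limma adjusted p = 1.00), with 0.08 on replicate 1 and 0.41 on replicate 2.

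Tagln (SM22), an actin-binding protein and a classic target of myocardin, read 13.04 and 13.02 in the knockouts and 12.92 and 12.87 in the controls of replicates 1 and 2. Here too the genotypes did not overlap, and the arrays gave nearly the same difference, 0.12 and 0.15, a mean of 0.14 ± 0.03 (SD, n = 2; limma adjusted p = 1.00). In all, 4 of the 29 genes had both knockout channels above both control channels, namely Acta2, Tagln, Nexn and Ppp1r12b, beside 13.9% of all genes. The reverse held for 3 genes, Flna, Csrp1 and Cacna1c, beside 15.3% of all genes, and for 1 gene with median centring. Neither share of the 29, 13.8% and 10.3%, was above that of all genes.

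Actg2, the smooth muscle gamma-actin of visceral organs, gave the opposite picture on each array. It read 10.73 in the knockout and 11.10 in the control of replicate 1, but 10.43 and 10.06 on replicate 2. The ratios of -0.37 and 0.37 cancelled to a mean of -0.00 ± 0.52 (SD, n = 2; limma adjusted p = 1.00). The Cy5 channel was the brighter on both arrays.

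Cnn1 (calponin), which damps the myosin ATPase on actin, read 11.80 in the knockout and 11.88 in the control of replicate 1, and 11.87 and 11.44 on replicate 2. The difference of 0.43 on replicate 2 had no counterpart on replicate 1 (-0.07), and the mean was 0.18 ± 0.36 (SD, n = 2; limma adjusted p = 1.00). Cald1 (caldesmon), another actin-bound inhibitor of the motor, read 11.07 in the knockout and 11.51 in the control of replicate 1, and 11.22 and 11.05 on replicate 2. Its ratios of -0.44 and 0.17 also split by array. A second probe of Cald1 split the same way, with -0.31 and 0.05.

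The tropomyosins, which lie along the actin filament, differed little between the genotypes. Tpm2 read -0.16 and -0.08 and Tpm1 -0.07 on both arrays, yet 2 of the 4 other kept probes of Tpm1, a gene with many splice forms, had a mean above 0. Smtn (smoothelin), a marker of contractile smooth muscle, read -0.14 and 0.08, and Nexn (nexilin), an actin-binding protein, read 0.04 and 0.09.

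**Figure D3:**
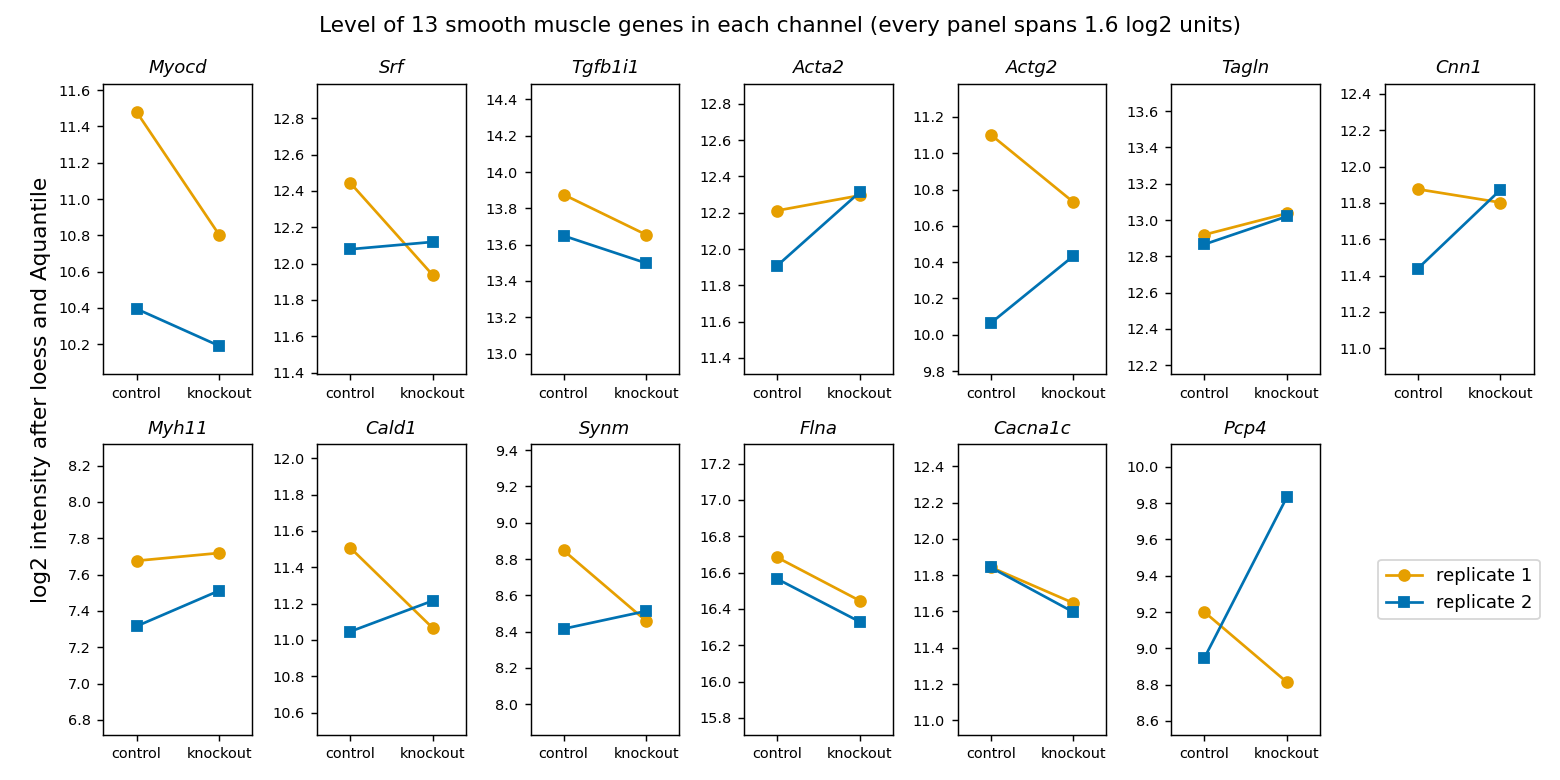
Log2 intensity after loess and Aquantile (y axis, each panel spanning 1.6 log2 units at its own height) in control and knockout channels for 13 genes, with a line joining the channels of an array (circles for replicate 1, squares for replicate 2). Lines run parallel for Tagln, Tgfb1i1, Flna and Cacna1c, slope down on both arrays for Myocd, and slope in opposite directions for Actg2, Srf, Cald1, Cnn1, Synm and Pcp4.

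The 5 genes of the myosin motor and its switch were all detected, with a median log2 ratio of 0.06. Myh11, whose probe is printed above, read 7.72 in the knockout and 7.68 in the control of replicate 1, and 7.51 and 7.32 on replicate 2. The knockout was brighter on each array, but the knockout of replicate 2 was below the control of replicate 1. The mean log2 ratio was 0.12 ± 0.11 (SD, n = 2; limma adjusted p = 1.00).

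Myl9, the regulatory light chain that the kinase phosphorylates, read 0.20 on replicate 1 and -0.16 on replicate 2, and Mylk, that kinase, read -0.16 and 0.15. Both averaged close to 0, at 0.02 and -0.00, with the sign turned between the arrays. Ppp1r12b, a targeting subunit of the myosin phosphatase, read 0.08 and 0.04. Ppp1r14a (CPI-17), the inhibitor of that phosphatase, read -0.01 and 0.27. None of the 5 was at a limma adjusted p other than 1.00.

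The anchorage group, proteins that tie filaments to dense bodies, adhesion sites and each other, had a median of -0.11 over its 10 genes, with 4 below 0 on both arrays and 0 above. Flna (filamin A), an actin cross-linker, read 16.44 and 16.33 in the knockouts and 16.68 and 16.57 in the controls of replicates 1 and 2. Both control channels were brighter than both knockout channels, and the difference was -0.24 on each array (SD 0.0015, n = 2; limma adjusted p = 1.00). That closeness is within a single gene, and limma, which sets each gene beside the spread of all genes, gave it an SE of 0.12. Csrp1, a LIM protein of the actin cytoskeleton, did not overlap either, with -0.30 and -0.07.

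Synm (synemin), an intermediate filament protein, read 8.46 in the knockout and 8.85 in the control of replicate 1, and 8.51 and 8.42 on replicate 2. Its ratios of -0.39 and 0.10 fell on both sides of 0, and its other kept probe read 0.02 and 0.08. Synpo2 (-0.41 and 0.02) and Pdlim7 (-0.34 and 0.05), both actin-associated proteins, likewise had a lower knockout channel on replicate 1 and almost equal channels on replicate 2. Des (desmin), the muscle intermediate filament, was level on both arrays, at 0.01 and -0.01. Vcl (vinculin), the adhesion-site linker whose promoter window holds a CArG box, read -0.03 and -0.04, and its other probe -0.04 and 0.09. The 3 remaining genes, Hspb7 (-0.02 and -0.14), Ldb3 (-0.11 and 0.13) and Pdlim3 (0.16 and -0.05), stayed within 1.2-fold in the mean.

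Of the calcium and excitability group only Cacna1c and Pcp4 were detected. Cacna1c, the pore subunit of the L-type calcium channel that starts each contraction, read 11.65 and 11.60 in the knockouts and 11.84 in both controls. The genotypes did not overlap, and the mean log2 ratio was -0.22 ± 0.03 (SD, n = 2; limma adjusted p = 1.00). Pcp4, a calmodulin-binding peptide that is also abundant in neurons, was the least reproducible of the 29 genes. It read 8.81 in the knockout and 9.20 in the control of replicate 1, but 9.83 and 8.95 on replicate 2, a log2 ratio of -0.39 and then 0.89, with a mean of 0.25 ± 0.90 (SD, n = 2; limma adjusted p = 1.00).

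Beside Pcp4, the list of neuron and glia markers had the same pattern. All 10 were measured, and 9 of them were brighter in Cy5 on both arrays (27.1% of all genes). Their median was -0.48 on replicate 1 and 0.73 on replicate 2. Their summed linear level was 107497 and 128613 in the knockouts and 154026 and 123985 in the controls of replicates 1 and 2. Their part in the value of Pcp4 was not tested.

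**Figure D4:**
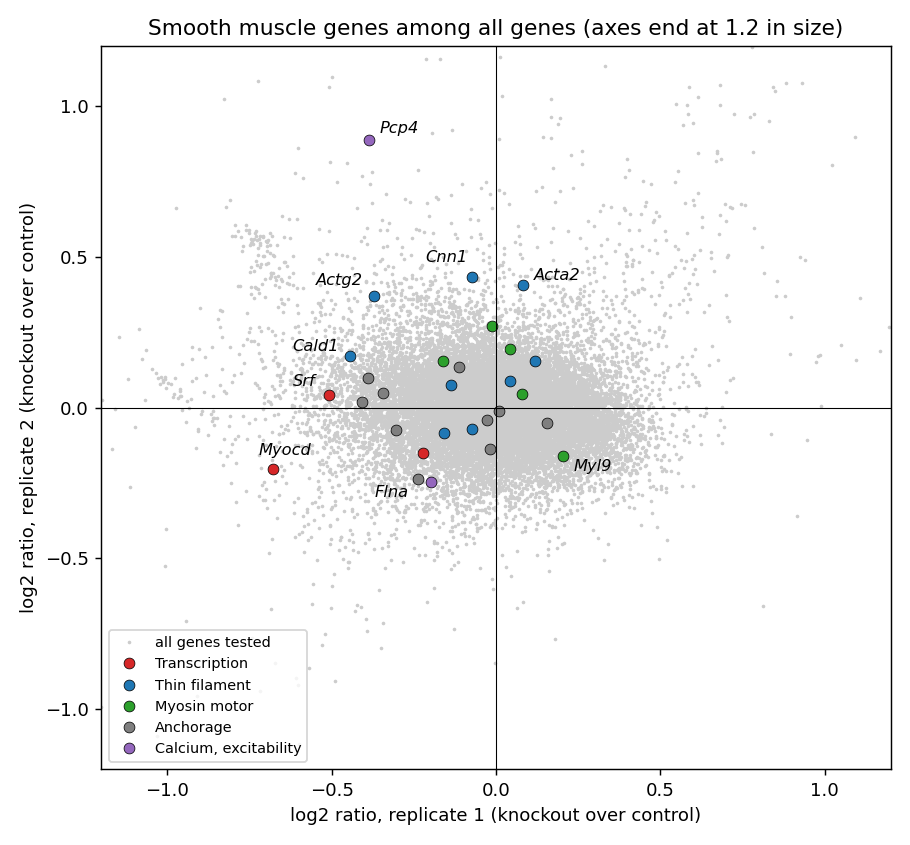
Log2 ratio of labelled knockout over labelled control on replicate 1 (x axis) and replicate 2 (y axis) for the 29 smooth muscle genes (coloured by role) and all 20104 genes (grey, axes ending at 1.2 in size). Points of Pcp4, Actg2, Cald1 and Srf lie in the upper left, where the arrays differ in sign, and Myocd and Flna lie in the lower left, below 0 on both.

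The arrays did not order the genes alike. Across the 29 genes, which share both arrays and are not independent, Pearson's r between the arrays was -0.03 and Spearman's rank correlation 0.06, beside 0.02 and -0.08 across all genes. The median difference between the arrays was 0.23 for these genes and 0.17 for all genes, and it was over 0.3 for 12 of the 29 genes (26.0% of all genes). Spots of a main probe on an array had a median SD of 0.05. For 12 genes with further kept probes, 11 of the 16 such probes had a mean of the same sign as the main probe and 5 did not, those being probes of Tgfb1i1, Tpm1, Synm and Vcl.

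Genes upstream of the muscle programme, a list of 22 signalling components and transcription factors, were all detected. None passed limma after adjustment, and 8 had an unadjusted p under 0.05 (4.55% of all genes). The median log2 ratio was -0.20, with -0.32 on replicate 1 and -0.08 on replicate 2. Below 0 on both arrays were 14 of the 22 genes (24.6% of all genes) and above 0 on both was 1, and in 12 both control channels were brighter than both knockout channels (15.3% of all genes). Foxf1, a forkhead factor of the mesenchyme that answers hedgehog signals, had a mean of -0.70, with -0.40 on replicate 2 and a larger gap on replicate 1 (limma adjusted p = 0.163). It passed in 5 of 11 other processing settings (adjusted p from 0.0108 to 1.00), and its dimmer second probe read -0.31 and -0.09. Ptch1, the hedgehog receptor and itself a hedgehog target, read -0.70 and -0.12 (limma adjusted p = 0.861), and -0.70 and -0.21 on a second probe. Gli1, the transcriptional effector and target of that pathway, read -0.36 and -0.35 (limma adjusted p = 0.688).

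A further 35 genes of contraction outside the set, among them integrins and calcium store channels, were all detected, and again none passed. Their median was -0.03, with 7 above 0 on both arrays (21.7% of all genes) and 12 below (24.6% of all genes). Tnnt2, a troponin of striated muscle, read 0.58 and 0.15 (limma adjusted p = 0.924). Itga9, an integrin chain, read -0.38 and -0.27 (limma adjusted p = 0.909). Tln1 (talin), an adhesion-site protein, read -0.43 and -0.18 (limma adjusted p = 1.00), and -0.07 and 0.13 on a dimmer second probe.

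Markers of other tissues that a dissected ureter could hold were measured on the same arrays. Of 17 skeletal muscle markers 15 were detected, Ckm and Myf5 not. Of these 15, 10 were above 0 on both arrays. Over all genes, 21.7% were above 0 on both arrays and 24.6% below 0 on both. The skeletal muscle markers had a median of 0.58 on replicate 1 and 0.09 on replicate 2. Their summed level was 18708 and 17780 in the knockouts against 14154 and 16371 in the controls. Of 8 cardiac markers 5 were detected (median 0.05), not Mybpc3, Myl7 and Nkx2-5. The 29 smooth muscle genes together had a summed level of 334189 and 315299 in the knockouts and 364241 and 337956 in the controls. That sum was lower in the knockout on each array, but the brightest probes weigh most in it. On replicate 2, 17 of the 29 genes were above 0 and 12 below. Flna (-0.24), Myl9 (-0.16) and Csrp1 (-0.07), whose probes are the brightest of the set, were among those 12. Pericyte markers had a median of -0.13 (8 of 8 detected). Fibroblast markers (10 of 10 detected) had a median of -0.13, with 4 below 0 on both arrays and 2 above on both. Endothelial markers (10 of 10) had a median of -0.15, with 5 below 0 on both arrays and 0 above on both. Epithelial markers (10 of 10) had a median of 0.24, with 9 above 0 on both arrays, and a summed level of 232454 and 207749 in the knockouts against 202209 and 191828 in the controls. Medians were 0.15 for nephron markers (7 of 8 detected, without Nphs1), 0.11 for macrophage markers (8 of 8) and 0.05 for mesothelial markers (6 of 7, without Muc16). Of all these markers 1 passed limma, the mesothelial and urothelial gene Upk3b (limma adjusted p = 0.0477). It passed in 7 of the 10 alternative settings that kept it, and not with median centring (adjusted p = 1.00), with no filter (0.748) or with the channels unpaired (0.0825). What part these tissues have in the values of the smooth muscle genes was not tested.

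**Figure D5:**
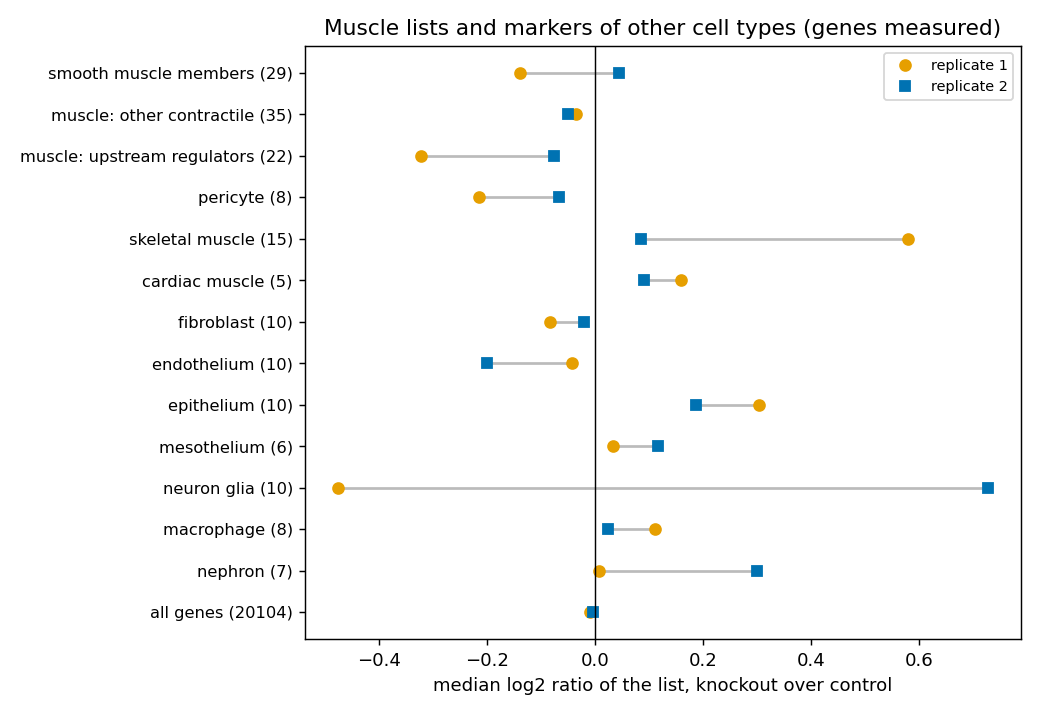
Median log2 ratio of labelled knockout over labelled control (x axis) on replicate 1 (circles) and replicate 2 (squares) for the 29 smooth muscle genes, 2 further muscle lists, 10 lists of tissue markers and all genes, with the number of measured genes in brackets. The smooth muscle genes sit at -0.14 and 0.04, upstream regulators below 0 and skeletal muscle above 0 on both arrays, and neuron and glia markers are farthest apart.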

How the data were processed

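Each of the 2 arrays gave 1 knockout over control ratio from whole ureters at E14.5. Per the file headers, Agilent Feature Extraction 10.7.3.1, which the submitters' processing notes also name, gave spot intensity per channel as mean signal and median local background. The deposited files also hold an intensity background-subtracted, detrended and dye-normalised by that software. The authors also deposited a score per probe, a signed fold with a median of 1 in each column, of unstated scale, centring and floor. Its correlation with log2 red over green was 0.822 (replicate 1) and -0.739 (replicate 2), which by the label dyes is control over knockout.

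Here, normexp (offset 50) was applied to the mean signals and loess within each array, giving control spots a weight of 0. Spots marked as outliers (3.52% and 3.66%) were left out, no spot was saturated, and the 4 spots of a probe were averaged. Ratios were turned to knockout over control by the label dyes. A gene was its brightest kept probe. Of 39429 probes 26522 were kept. The share of probes well above background was 69.1% and 66.5% in the knockout channels of replicates 1 and 2, and 67.6% and 68.6% in the control channels. The number of arrays limits the precision.

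limma 3.58.1 (R 4.3.3) tested the mean of both ratios against 0, with Benjamini-Hochberg adjustment over 20104 genes, 1 residual degree of freedom per gene and a variance prior worth 9.21 of them. Knockout and control share an array, so the ratio holds the pairing. Channel levels are log2 intensity after loess and Aquantile. Levels of different probes are not compared as amounts of RNA, although the summed levels add linear levels over the main probes of a list. The limma step alone was tried on simulated ratios with planted changes. Names were updated through RefSeq (GRCm38.p6).

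The genes and lists were chosen with earlier results of these data known, so no list was tested. Channel values are given for Acta2, Actg2, Tagln, Myh11, Cnn1 and the transcription group, for any gene that passed or was 1.5-fold apart on each array, for the 6 with the largest mean, and for the 6 with the largest gap between arrays. Of other lists, up to 3 genes with the largest mean are named, besides any that passed. Alternatives were other background corrections, normalisations, filters, probe rules, variance priors, the deposited score, unpaired channels and each array alone. Plots used matplotlib 3.10.9.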

Additional observations from a re-analysis of the deposited data

Results flagged for a closer look

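In 2 of the 29 smooth muscle genes the arrays went in opposite directions by more than 1.2-fold each, as they did in 352 of all 20104 genes (1.75%). Actg2, the visceral smooth muscle actin, read -0.37 (log2, knockout over control) on the female array and 0.37 on the male array. Pcp4, the calmodulin-binding peptide, had -0.39 on the female array and 0.89 on the male array. There is 1 array of each sex, sex and dye orientation change together, and the difference between the arrays was not tested.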

How the results depend on the processing

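The count of 0 smooth muscle genes past the limma threshold held in all 11 alternatives with both arrays, where the lowest adjusted p ranged from 0.285 (Agilent's processed signals) to 1.00. Of the 29 genes, 25 kept the sign of their mean in all 11, and Actg2, Des, Mylk and Smtn, with means near 0, did not. The count of all genes past the threshold, 66, moved to 246 (151 higher, 95 lower) with processed signals, 115 (82 and 33) with no background correction, 131 (93 and 38) with an offset of 0, 191 (126 and 65) with the authors' deposited score, 156 (111 and 45) with a trended prior, and 0 both with median centring (347 at an unadjusted p under 0.05 by limma) and with no filter (1097). With the channels unpaired, that is with no replicate block, it was 26 (16 and 10) and still 0 among the 29. Median centring took the genes below 0 on both arrays from 9 to 3, and those with both control channels brighter from 3 to 1. Allowing a mismatch took the smooth muscle genes with a CArG box from 4 to 10 of 27. Leaving out replicate 1 or replicate 2 left 1 gene at least 1.5-fold apart (Pcp4 on replicate 2, Myocd on replicate 1), from 8 to 17 genes above 0, from 12 to 21 below, and a median from -0.14 to 0.04. Differences near or below the SE of a gene, 0.12 to 0.23, could not be shown with 2 arrays. Differences of several SE did not pass either. Myocd, at -0.44 with an SE of 0.14, had a limma adjusted p of 0.610. Foxf1, outside the set, at -0.70 with an SE of 0.15, had a limma adjusted p of 0.163.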
